A study of Mus musculus with 6 samples.

Results

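The genes of the mitochondrial genome were taken as the rows whose gene symbol starts with mt-, which gave 37 of the 55335 genes in the count table. They are 13 mRNA genes, 2 rRNA genes and 22 tRNA genes, the full set of a mammalian mitochondrial chromosome, and the rule uses gene symbols alone. Young mice were 6 weeks old and aged mice 6 months old, with 3 wild-type (WT) male c57b6l mice (C57BL/6 in the study's methods) per age, no treatment, and 1 aorta library per mouse. The libraries were made with a SMARTER mRNA-Seq kit from total RNA and sequenced from 1 end over 50 cycles. The deposited values are reads counted per gene, and FPKM, the count scaled to gene length and library. At 6 months a mouse is an adult, so the contrast spans maturation as well as age. In a whole aorta, fewer cells of a type and less RNA per cell cannot be told apart.

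Mitochondrial DNA is a small circle that is transcribed along both strands into long precursor RNAs. In most places a tRNA lies between neighbouring genes, and cutting out the tRNAs frees the mRNAs and rRNAs, a principle known as tRNA punctuation. The mRNAs encode core subunits of respiratory complexes I, III and IV and of the ATP synthase (complex V), the rRNAs build the mitochondrial ribosome, and the tRNAs serve translation inside the organelle. All other subunits of these complexes come from nuclear genes, so each complex is built from both genomes.

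Total counts lay between 31049632 and 45832185 per library. Smooth muscle genes of the aortic wall were abundant in every library, with Acta2, the smooth muscle actin, at 12229 to 18120 CPM (counts relative to the TMM-scaled library size) and Myh11, the smooth muscle myosin, at 6152 to 10139 CPM. Several libraries stood apart. Young replicate 1 had Xist, the RNA of the inactive X chromosome in female cells, at 305.6 CPM against at most 0.636 in the others, and the Y-linked Ddx3y at 1.09 CPM against at least 44.8, which goes against the male sex that the study states. Its summed cardiac markers were 275 CPM against 41.0 to 56.9 elsewhere. Aged replicate 2 had the brown-fat gene Ucp1 at 1422 CPM and the lipid gene Scd1 at 6362 CPM, the highest of the 6 libraries, and on the first principal component it lay at -22.8, within the young range of -31.3 to -13.7, against 42.7 and 48.7 for the other aged libraries. Aged replicate 3 had the summed endothelial markers at 1159 CPM against 257 to 314 CPM elsewhere. Most of this sum was Pecam1, at 870 CPM against at most 225 CPM. Tie1 was at 150 CPM against at most 34.7 CPM, and Cdh5 at 106 CPM against at most 46.8 CPM. Kdr was little apart, at 33.4 CPM against at most 29.2 CPM. Shares, class ratios, the fits and the comparison of both genomes are therefore also given without young replicate 1 and aged replicate 2, and values without aged replicate 3 are given where they move a result.

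On chromosome M of GRCm38 (GENCODE M21), 28 of the 37 genes lie on the plus strand and 9 on the minus strand, namely mt-Nd6 and 8 tRNA genes. The reading frames are packed closely, and the places where neighbours share bases are shown because a read that falls there belongs to both genes. Sequences are from the GENCODE M21 transcripts, 5′ to 3′, with the shared bases in capitals. The end of mt-Atp8 and the start of mt-Atp6 share 43 bases on the same strand, the end of mt-Nd4l and the start of mt-Nd4 share 7, and mt-Nd5 and mt-Nd6 share 14 on opposite strands, written here on the strand of mt-Nd5.
mt-Atp8/mt-Atp6 overlap: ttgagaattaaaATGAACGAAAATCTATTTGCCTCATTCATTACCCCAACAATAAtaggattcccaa
mt-Nd4l/mt-Nd4 overlap: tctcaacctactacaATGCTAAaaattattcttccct
mt-Nd5/mt-Nd6 overlap: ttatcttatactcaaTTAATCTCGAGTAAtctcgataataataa

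The annotated length is no multiple of 3 for 3 of the 13 mRNAs, mt-Co3, mt-Nd4 and mt-Cytb. Each ends 1 base after its last whole codon, and it is textbook knowledge that the poly(A) tail then completes the stop codon. The ends of mt-Co3 and mt-Cytb, with that single base in capitals, are set beside the end of mt-Co2, whose encoded stop codon is in capitals.
mt-Co3: tacgtctccatttattgatgaggatctT
mt-Cytb: gaagacaaaatactaaaattatatccaT
mt-Co2: gaaaactgatctgcttcaataattTAA

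Compared per length, as mean FPKM over the 6 libraries, the order of levels ran across classes. mt-Co1 was at the top with 46176 FPKM, followed by mt-Cytb with 24377, mt-Nd1 with 18457, mt-Co3 with 17443 and mt-Co2 with 17027. mt-Nd3 was the lowest mRNA, with 2247 FPKM. The other 7 mRNAs lay between 5736 FPKM for mt-Nd5 and 13226 FPKM for mt-Atp8. The rRNAs, which build the small and large ribosomal subunits, were below every mRNA in this order, with 1568 FPKM for mt-Rnr2 and 1318 FPKM for mt-Rnr1. The libraries were made with an mRNA kit, and how well it captured each RNA class was not tested. The order across classes is therefore one of FPKM, not of RNA amounts in the tissue. The tRNAs covered the widest range, from 1805 FPKM for mt-Te and 1079 FPKM for mt-Tl1 down to 0.762 FPKM for mt-Ts1. mt-Nd6 on the minus strand had 6399 FPKM, close to the 5736 FPKM of mt-Nd5 on the plus strand, and the ratio of both lay between 0.955 and 1.35 in the 6 libraries. Whether strand was used in counting is not stated, so reads of mt-Nd6 and of the opposite-strand precursor across it cannot be told apart. Neighbours in this order often overlapped: mt-Nd1, mt-Co3 and mt-Co2 shared most of their ranges, while mt-Co1 was above mt-Cytb in each library.

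**Figure D1:**
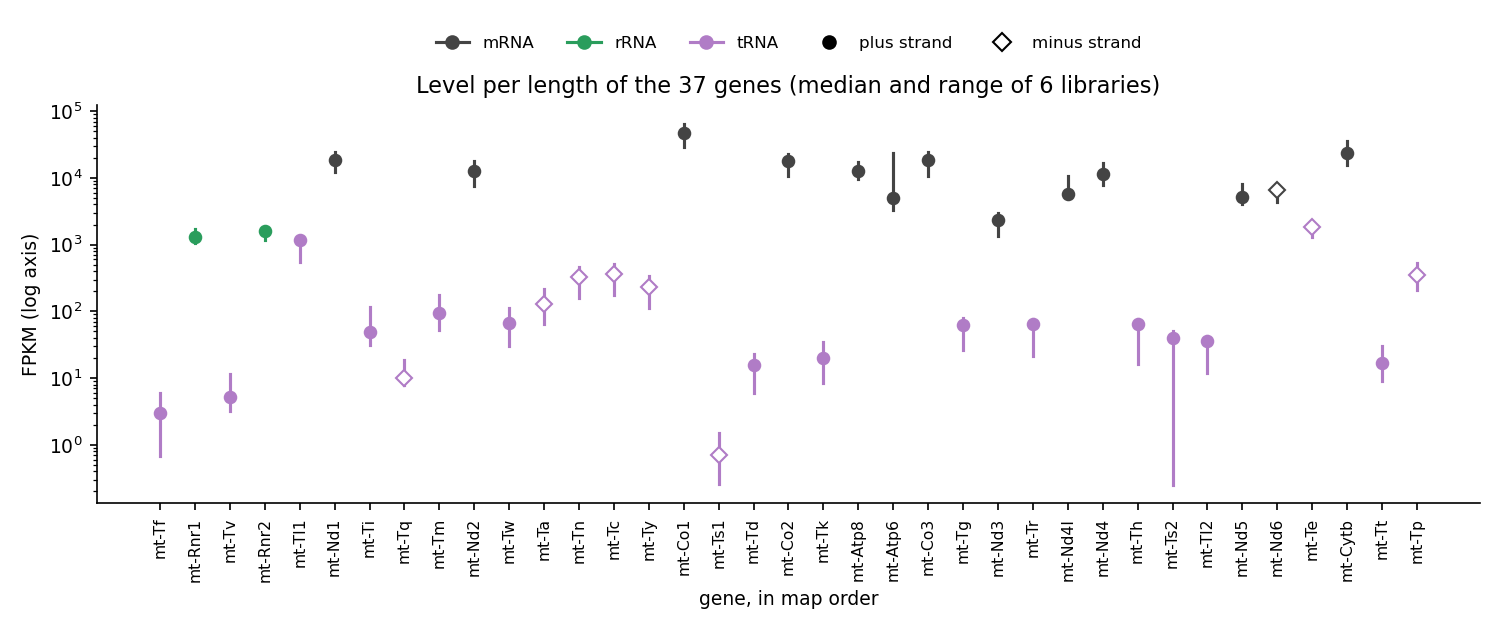
FPKM on a log axis for the 37 genes in map order, with the median (symbol) and the range (line) of the 6 libraries; colour marks the RNA class and open diamonds the minus strand. The 13 mRNAs sit above both rRNAs in median, and tRNAs spread from mt-Te near 1805 FPKM (mean) down to mt-Ts1. The longest lines are mt-Ts2, mt-Tf and mt-Atp6.

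A group of mRNA rows is nearly the same sequence as nuclear rows, which lie in a copy of mitochondrial DNA on chromosome 1. Among the windows of 50 bases in each mRNA, at least 97% also occur in a nuclear row for 5 genes: mt-Co2 with 100%, mt-Co3 with 99.9%, mt-Atp6 with 99.5%, mt-Nd4l with 98.8% and mt-Nd3 with 98.0%. For mt-Nd4 it was 62.2%, for mt-Co1 51.1%, for mt-Nd2 8.19%, for mt-Nd5 7.61% and for the rRNA mt-Rnr2 1.04%. No window of mt-Nd1, mt-Atp8, mt-Nd6 or mt-Cytb, or of any tRNA, was shared with an annotated nuclear transcript. Only annotated transcripts were compared, and sequence between them was not: no row is annotated between Gm10925 and Gm28661, the rows of mt-Atp6 and mt-Co2, where a copy of mt-Atp8 would lie. The copy of mt-Nd3, Gm28438 (chr1:24612775-24613119, minus strand, GRCm38), differs from it at 1 of 345 aligned bases, T3C counted from the first base of mt-Nd3. The starts of both are shown with that base in capitals, since it is the 1 difference within the aligned stretch.
mt-Nd3: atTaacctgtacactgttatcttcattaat
Gm28438: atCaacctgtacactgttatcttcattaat

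For 4 of these 5 mRNAs the paired rows also had nearly the same counts, and mt-Atp6, with ratios from 0.191 to 0.951 to Gm10925, was the exception. The count of mt-Co3 divided by that of Gm28437 lay between 0.9995 and 1.0011, and the ratios were 0.997 to 1.00 for mt-Co2 over Gm28661, 1.01 to 1.03 for mt-Nd3 over Gm28438, and 1.006 to 1.010 for mt-Nd4l over Gm10222. Nuclear rows sharing at least 1 window number 15, and the rows that follow mitochondrial genes took 4.12% to 6.12% of counts in young and 7.06% to 8.63% in aged libraries. Values of these 5 mRNAs therefore cannot be assigned to one genome from the counts alone, and those of mt-Nd4 and mt-Co1 only in part.

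Mitochondrial mRNAs took a larger share of the counts in each aged library than in each young one. The 13 mRNA genes held 20.8%, 16.2% and 14.6% of raw counts in young replicates 1, 2 and 3, and 22.7%, 26.2% and 29.9% in aged replicates 1, 2 and 3. All aged values lay above all young values, and young replicate 1 was nearest to the aged group. The means were 17.2% ± 3.22 (SD, n = 3) and 26.3% ± 3.62 (SD, n = 3), a difference of 9.08 percentage points (exact two-sided permutation test, p = 0.1, the smallest p that 3 mice against 3 allow). Without young replicate 1 and aged replicate 2 the difference was 10.9 points (exact permutation p = 0.333, the smallest for 2 against 2). Without aged replicate 3 it was 7.26 points (exact permutation p = 0.2). On summed FPKM in place of counts the groups overlapped, with a difference of 9.04 points (exact permutation p = 0.2).

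The rRNA share was small and followed the same order of groups. The 2 rRNA genes held 0.364%, 0.413% and 0.319% of counts in young and 0.429%, 0.458% and 0.4997% in aged libraries, in replicate order. The aged values were again all above the young ones, with a difference of 0.0971 percentage points (exact permutation p = 0.1), and without young replicate 1 and aged replicate 2 it was 0.0987 points. On summed FPKM the rRNA shares were 0.525%, 0.625% and 0.530% in young and 0.561%, 0.590% and 0.628% in aged libraries, which overlapped, with a difference of 0.0325 points (exact permutation p = 0.4). The 22 tRNA genes held 0.0441%, 0.0342% and 0.0214% in young and 0.0406%, 0.0401% and 0.0411% in aged libraries. Here the groups overlapped: young replicate 1 had the highest tRNA share of all libraries, young replicate 3 the lowest, and the 3 aged libraries were almost equal, so the difference of 0.00737 points was within the spread (exact permutation p = 0.4). Without young replicate 1 it was 0.0128 points, without young replicate 3 it was 0.00148 points, and without young replicate 1 and aged replicate 2 it was 0.0130 points.

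**Figure D2:**
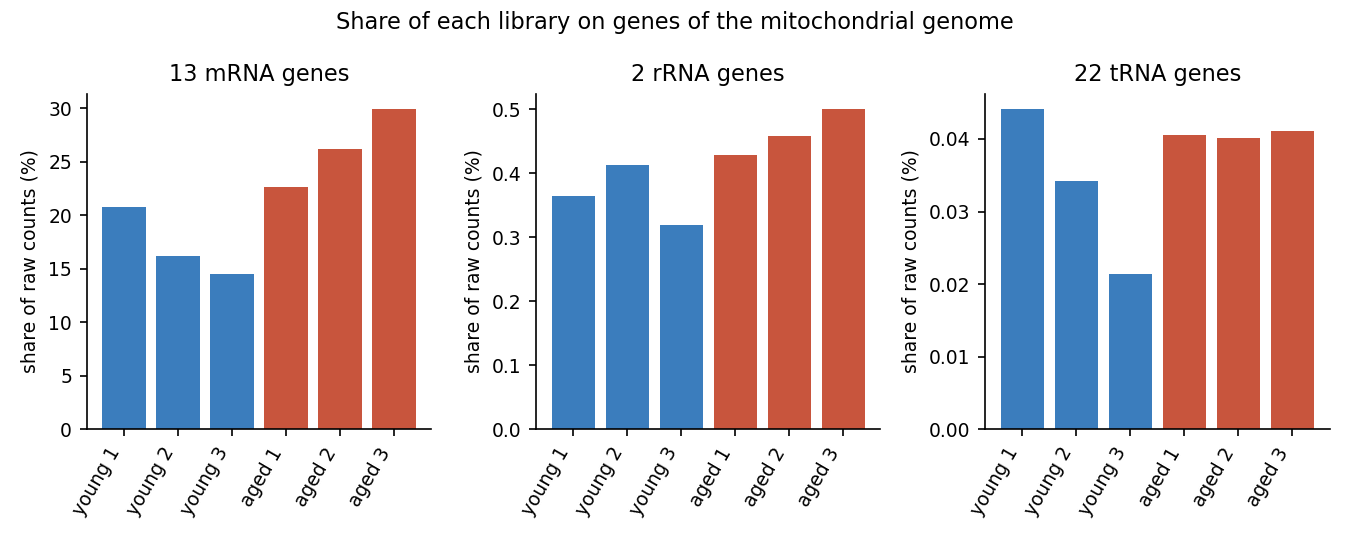
Share of raw counts in percent for each library, with separate vertical axes from 0 for the 13 mRNA, 2 rRNA and 22 tRNA genes; blue bars are young and red bars aged mice. The aged bars exceed every young bar for mRNA (22.7% to 29.9% against 14.6% to 20.8%) and rRNA, while for tRNA young replicate 1 (0.0441%) is the highest.

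Within the mitochondrial RNA, the proportions of the classes overlapped between the ages with all libraries. For every 100 mRNA counts there were 1.75, 2.55 and 2.19 rRNA counts in young and 1.89, 1.75 and 1.67 in aged libraries. Young replicate 1 lay within the aged range, and the difference of -0.392 did not exceed the spread (exact permutation p = 0.2). Without young replicate 1 the groups did not overlap, with fewer rRNA counts per 100 mRNA counts in aged libraries and a difference of -0.598 (exact permutation p = 0.1, the smallest for 2 against 3). Without young replicate 1 and aged replicate 2 it was -0.586. tRNA counts per 100 mRNA counts were 0.212, 0.211 and 0.147 in young and 0.179, 0.153 and 0.137 in aged libraries, which overlapped as well (exact permutation p = 0.3), also without young replicate 1 (exact p = 0.6). Rows with rRNA-like nuclear sequence (4 rows) held 0.557%, 3.75% and 2.56% of counts in young and 1.58%, 1.05% and 0.535% in aged libraries, and were highest in young replicates 2 and 3, which had the lowest mitochondrial mRNA shares. With these rows left out of the total, the mRNA difference was 8.97 points. The long nuclear RNAs (Malat1, Neat1, Meg3 and Kcnq1ot1) summed to 999, 2367 and 1978 CPM in young and 1082, 1445 and 869 CPM in aged libraries. The part of nuclear RNA content in the mitochondrial shares was not tested.

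Gene by gene, aged aorta had the higher fitted level for 13 of 13 mRNAs, but no gene passed the corrected threshold in edgeR. edgeR's quasi-likelihood test called 0 of the 13 at an adjusted p below 0.05, as it called 0% of all 16612 genes tested. At an unadjusted p below 0.05, 12 of 13 were higher in aged aorta, against 5.56% of all genes. Aged and young CPM did not overlap for 11 of 13, against 7.74% of all genes higher in the same sense. The log2 fold changes of aged over young ran from 0.67 for mt-Nd6 to 0.93 for mt-Atp6, with a median of 0.83 against 0.02 over all genes, and the lowest adjusted p was 0.376, for mt-Nd3. DESeq2 on the same counts called 5 of 13 (mt-Nd3, mt-Co2, mt-Nd1, mt-Cytb and mt-Nd2), against 1.32% of all genes called higher. limma on log2(FPKM + 1) called 0 and had 1 higher at an unadjusted p below 0.05, against 2.52% of all genes. The unadjusted count fell from 12 to 8 without young replicate 2, against 4.21% of all genes, to 8 without young replicate 3, against 3.85%, and to 7 without aged replicate 3, against 3.67%. It was 11 without young replicate 1 and aged replicate 2, against 9.41%. These mRNAs come from shared precursors and are read in the same libraries, so they are not independent of each other. Aged replicate 3, the library with the high sum of endothelial markers, had the highest CPM for 12 of the 13 mRNAs and young replicate 3 the lowest for 11. The part of endothelial content in this was not tested.

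Complex I, the NADH dehydrogenase that passes electrons to ubiquinone, has 7 mitochondrial subunits, all in the membrane arm. mt-Nd1 (chromosome M, 2751 to 3707) was at 17590, 14063 and 11825 CPM in young and 24118, 22766 and 29526 CPM in aged libraries. mt-Nd2 (3914 to 4951) was at 13282, 9068 and 7988 CPM in young and 15758, 18319 and 23151 CPM in aged libraries. Both had all aged libraries above all young ones, with log2 fold changes of 0.81 ± 0.23 (SE) and 0.92 ± 0.27 (SE), edgeR adjusted p of 0.380 and 0.382, and DESeq2 adjusted p of 0.0286 and 0.0433. mt-Nd3 (9459 to 9806) was at 774, 594 and 469 CPM in young and 1078, 1119 and 1276 CPM in aged libraries. Its groups did not overlap, and it had the lowest p of the 13 mRNAs, at a log2 fold change of 0.92 ± 0.22 (SE), with an adjusted p of 0.376 in edgeR and 0.0147 in DESeq2.

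The long subunit genes mt-Nd4 and mt-Nd5 encode antiporter-like subunits of the membrane arm. mt-Nd4 (10167 to 11544) was at 16242, 12585 and 10925 CPM in young and 18552, 22425 and 28292 CPM in aged libraries, a log2 fold change of 0.80 ± 0.25 (SE). mt-Nd5 (11742 to 13565) was at 10303, 7952 and 7380 CPM in young and 10878, 15961 and 18628 CPM in aged libraries, a log2 fold change of 0.83 ± 0.26 (SE). Neither pair of groups overlapped, but in both genes aged replicate 1 was close to young replicate 1. mt-Nd6 (13552 to 14070, the only mRNA on the minus strand) was at 3469, 2964 and 2231 CPM in young and 4168, 4540 and 5054 CPM in aged libraries. Its groups were apart as well, with the smallest log2 fold change of the 13, 0.67 ± 0.22 (SE), and it had no window shared with an annotated nuclear row. Its counts carry the limit on strand given with its level.

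mt-Nd4l (9877 to 10173), the smallest mRNA of complex I, did not follow this order. It was at 1937, 1557 and 1623 CPM in young and 1755, 3127 and 3874 CPM in aged libraries. Aged replicate 1 lay inside the young range, and the log2 fold change was 0.78 ± 0.30 (SE, edgeR adjusted p = 0.448). mt-Nd4l shares its transcript with mt-Nd4. On FPKM the ratio of mt-Nd4l to mt-Nd4 was 0.555, 0.575 and 0.691 in young and 0.440, 0.649 and 0.637 in aged libraries. This ratio was lowest in aged replicate 1. The nuclear row Gm28439 is identical to the first 876 of 1378 bases of mt-Nd4, the part next to mt-Nd4l. Its count, for which the origin of the reads was not tested, was 36.4%, 36.6% and 40.1% of the mt-Nd4 count in young and 33.2%, 39.4% and 38.8% in aged libraries. Aged replicate 1 was lowest in this measure too, and the groups overlapped (exact permutation p = 0.8).

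Complex III has a single mitochondrial subunit, cytochrome b. Its mRNA mt-Cytb (14145 to 15288) was at 27102, 21717 and 17908 CPM in young and 33843, 38504 and 50734 CPM in aged libraries. The groups did not overlap, and the log2 fold change was 0.88 ± 0.26 (SE), with an adjusted p of 0.382 in edgeR and 0.0345 in DESeq2. mt-Cytb has no exact window of 50 bases in common with an annotated nuclear row, and other copies were not tested.

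Complex IV, cytochrome c oxidase, takes its 3 catalytic core subunits from the mitochondrial genome. mt-Co1 (5328 to 6872), which carries the site of oxygen reduction, was at 74821, 53568 and 44687 CPM in young and 89723, 97030 and 125491 CPM in aged libraries. mt-Co2 (7013 to 7696) was at 11643, 8901 and 7203 CPM in young and 15556, 16302 and 19563 CPM in aged libraries. mt-Co3 (8607 to 9390) was at 14153, 10899 and 8375 CPM in young and 18227, 17817 and 23427 CPM in aged libraries. For all of them the aged libraries lay above the young ones, with log2 fold changes of 0.85 ± 0.28 (SE), 0.89 ± 0.24 (SE) and 0.83 ± 0.26 (SE). The adjusted p was 0.404, 0.377 and 0.390 in edgeR, and 0.0575, 0.0215 and 0.0563 in DESeq2. mt-Co1 alone held 4.94% to 7.91% of all counts in young and 8.46% to 11.1% in aged libraries. The nuclear row Gm29216, 492 bases long and 98.8% identical to mt-Co1 from its base 1054 on, had 12.3% to 14.96% of the mt-Co1 count, with no difference between the ages beyond the spread (exact permutation p = 0.9).

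Complex V, the ATP synthase, has a pair of mitochondrial subunits whose frames overlap in the 43 bases shown above. mt-Atp8 (7766 to 7969) was at 2629, 2173 and 1987 CPM in young and 3036, 3967 and 4412 CPM in aged libraries. The groups did not overlap, with a log2 fold change of 0.75 ± 0.21 (SE, edgeR adjusted p = 0.379). mt-Atp6 (7927 to 8607), the membrane subunit of the proton channel, was at 2621, 2318 and 9140 CPM in young and 3732, 18636 and 4529 CPM in aged libraries. Young replicate 3 and aged replicate 2 were far above the rest of their groups, and the log2 fold change of 0.93 had an SE of 0.77 (edgeR adjusted p = 0.683). Without aged replicate 2 it was -0.18, without young replicate 3 it was 1.87, and without young replicate 1 and aged replicate 2 it was -0.47.

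The spread of mt-Atp6 was not seen at its nuclear copy. The nuclear row Gm10925 (chr1:24613974-24614651, minus strand) is identical to mt-Atp6 over 678 aligned bases, yet the count of mt-Atp6 divided by that of Gm10925 was 0.191, 0.198 and 0.951 in young and 0.199, 0.944 and 0.197 in aged libraries. The ratio was thus near 0.2 in 4 libraries and near 0.95 in the other two, with no value between, and both kinds occurred at both ages. Gm10925 itself was at 13705, 11689 and 9613 CPM in young and 18711, 19751 and 22967 CPM in aged libraries, without overlap (exact permutation p = 0.1), and without the jumps of mt-Atp6. With Gm10925 in place of mt-Atp6, the mRNA share differed by 9.38 percentage points. How the reads of this pair were assigned was not tested, and the values of mt-Atp6 depend on it.

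**Figure D3:**
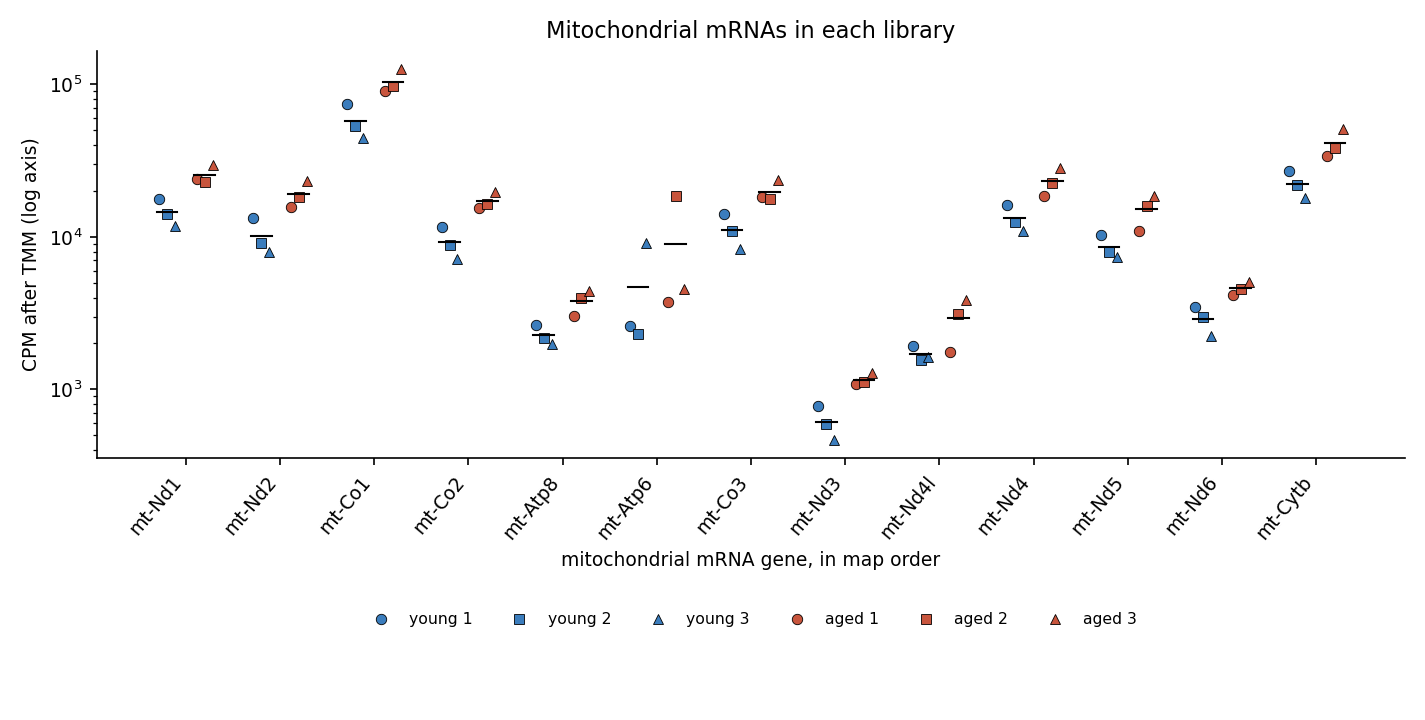
CPM on a log axis for the 13 mitochondrial mRNAs in map order; symbols are single libraries (blue young, red aged) and bars are group means. All aged symbols lie above all young ones for 11 genes, and mt-Nd4l and mt-Atp6 are the exceptions.

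**Figure D4:**
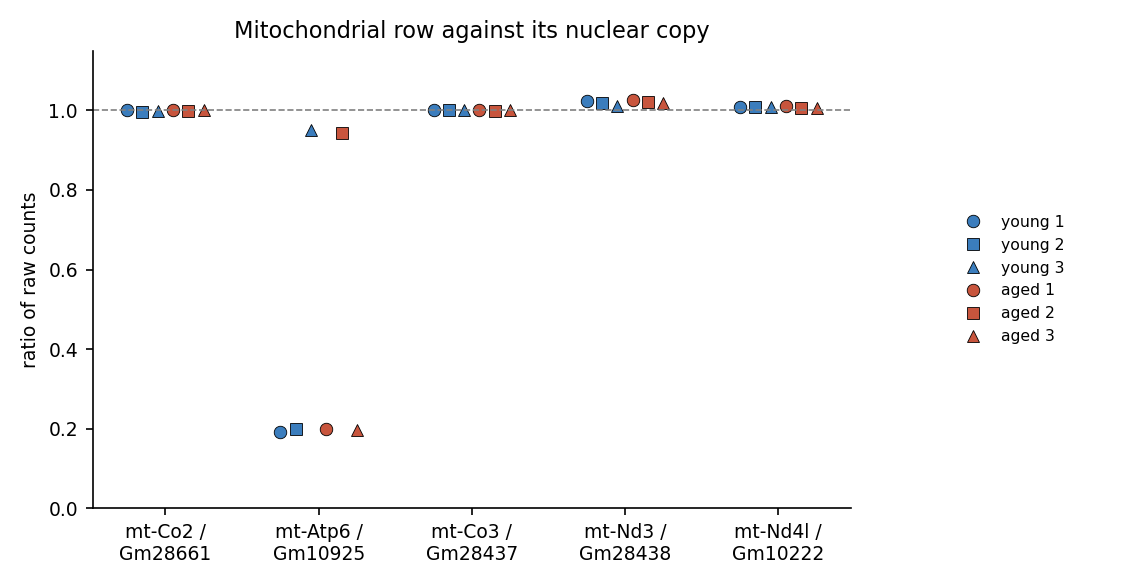
Count of a mitochondrial row divided by the count of its nuclear copy for the 5 closest pairs, with 1 symbol per library and a dashed line at 1. The other pairs sit at 0.997 to 1.03, while mt-Atp6 over Gm10925 is near 0.2 in 4 libraries and near 0.95 in young replicate 3 and aged replicate 2.

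As counted, the share of each of the 13 mRNAs in their mixture overlapped between the ages. Each gene's share of the counts on the 13 genes was compared, which does not depend on how a library is scaled. mt-Co1 held 38.1%, 36.1% and 33.9% of them in young and 37.3%, 34.6% and 37.1% in aged libraries. mt-Cytb held between 13.6% and 15.01%, and mt-Nd3 between 0.356% and 0.448%. For no gene were the groups apart (exact permutation tests, lowest p = 0.2 for mt-Nd6 and mt-Atp8, adjusted p = 0.9 over 13 genes). With 3 mice against 3 these tests cannot go below 0.1, so they cannot show that the mixture is unchanged. The jumps of mt-Atp6, at 6.94% in young replicate 3 and 6.64% in aged replicate 2 against 1.33% to 1.56% elsewhere, enter every share. mt-Nd6 was at 1.76%, 1.998% and 1.69% in young and 1.73%, 1.62% and 1.495% in aged libraries. With Gm10925 in place of mt-Atp6, the mt-Nd6 share was lower in all aged libraries than in all young ones, by 0.19 percentage points (exact permutation p = 0.1, adjusted p = 0.867).

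The fold changes of mRNAs with and without windows in annotated nuclear rows covered overlapping ranges. The 4 mRNAs with no such window had a median log2 fold change of 0.78 and ran from 0.67 to 0.88. All 4 had every aged library above every young one, against 7.74% of all genes. The 4 with windows shared in part ran from 0.80 to 0.92, and all 4 were apart in the same sense. The 5 with at least 97% shared ran from 0.78 to 0.93, and the 2 genes with overlapping groups, mt-Nd4l and mt-Atp6, are among these.

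The fitted changes of both rRNAs were smaller than that of any mRNA, a difference that was not tested. mt-Rnr1 (70 to 1024), the RNA of the small ribosomal subunit, was at 1072, 1273 and 1040 CPM in young and 1481, 1594 and 2028 CPM in aged libraries. mt-Rnr2 (1094 to 2675), the RNA of the large subunit, was at 2371, 2505 and 1844 CPM in young and 3072, 3304 and 3619 CPM in aged libraries. Both had all aged libraries above all young ones. The log2 fold changes were 0.59 ± 0.19 (SE) and 0.57 ± 0.19 (SE), with unadjusted p of 0.0164 and 0.0182 and adjusted p of 0.396 and 0.403 in edgeR, and DESeq2 called neither (adjusted p = 0.121 and 0.115). On FPKM, mt-Rnr2 over mt-Rnr1 lay between 1.07 and 1.33 in all libraries, with group means of 1.198 and 1.193.

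The tRNA genes are 59 to 75 bases long, a little longer than a read, and had few counts. Of 22, 20 passed the filter on low counts. mt-Tf had 2 to 16 counts and mt-Ts1 had 1 to 4 counts per library and were not tested. The most counted tRNA genes are shown whole, since a read covers most of such a gene: mt-Te (14071 to 14139, minus strand, for glutamate), which lies directly before mt-Nd6 on its strand, and mt-Tl1 (2676 to 2750, plus strand, for leucine), which lies between mt-Rnr2 and mt-Nd1.
mt-Te: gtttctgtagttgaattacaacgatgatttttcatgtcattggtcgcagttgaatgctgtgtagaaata
mt-Tl1: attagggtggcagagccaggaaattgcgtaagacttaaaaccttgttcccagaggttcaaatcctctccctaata

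mt-Te was at 133, 127 and 87.9 CPM in young and 148, 153 and 177 CPM in aged libraries. mt-Tl1 was at 94.9, 75.4 and 40.8 CPM in young and 115, 100.2 and 113 CPM in aged libraries. Both had all aged libraries above the young ones, with log2 fold changes of 0.46 ± 0.20 (SE) and 0.64 ± 0.29 (SE) and edgeR adjusted p of 0.488 and 0.508. mt-Tc (5192 to 5257, minus strand, for cysteine) was at 35.0, 22.5 and 11.4 CPM in young and 28.7, 32.6 and 29.2 CPM in aged libraries. Here young replicate 1 was above every aged library, and the log2 fold change was 0.39 ± 0.36 (SE, edgeR adjusted p = 0.715).

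The other tRNA genes showed the same features at lower levels. The 3 neighbours of mt-Tc on the minus strand, mt-Tn, mt-Ta and mt-Ty, had ranges of 11.2 to 34.6, 4.46 to 15.7 and 7.49 to 23.7 CPM over the 6 libraries, each with its highest value in young replicate 1 and its lowest in young replicate 3. mt-Tp, at the far end of the map, ranged from 13.8 to 43.0 CPM, with a log2 fold change of 0.97 ± 0.29 (SE, unadjusted p = 0.0115, edgeR adjusted p = 0.383). mt-Td ranged from 0.437 to 1.87 CPM, with a log2 fold change of 1.27 ± 0.48 (SE, unadjusted p = 0.0312, adjusted p = 0.443). These were the 2 of 20 tRNA genes under an unadjusted p of 0.05, both higher in aged aorta, against 5.56% of all genes, and edgeR and DESeq2 both called 0 of 20. mt-Tm, mt-Tw and mt-Ti ranged from 3.61 to 12.6, from 2.55 to 8.88 and from 2.21 to 8.26 CPM, with wide overlap of the ages. mt-Tg, mt-Th and mt-Tl2 ranged from 1.78 to 6.26, from 1.08 to 5.99 and from 0.874 to 3.58 CPM, and their aged libraries were all above the young ones. mt-Tr, mt-Tk and mt-Tt ranged from 1.46 to 5.80, from 0.554 to 2.68 and from 0.716 to 2.35 CPM, with overlap. mt-Tq and mt-Tv were the lowest tested, at 0.583 to 1.46 and 0.230 to 0.843 CPM. mt-Ts2, the shortest at 59 bases, had 1 count in young replicate 3 against 64 to 131 in the other libraries.

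In total, 19 of the 20 tested tRNA genes had a fitted log2 fold change above 0, against 52.1% of all genes, and mt-Tw was at -0.19. The median was 0.44 and the range -0.19 to 1.27, and every aged CPM was above every young CPM for 7 of 20, against 7.74% of all genes. These were mt-Te, mt-Tl1, mt-Tp, mt-Td, mt-Tg, mt-Th and mt-Tl2. Young replicate 3 had the lowest CPM for 16 of the 20. The highest CPM was in aged replicate 1 for 9 and in young replicate 1 for 6. Without young replicate 1, 15 of the 23 rRNA and tRNA genes then tested had an unadjusted p below 0.05, where 5.90% of all genes were higher at this p. With all libraries it was 4 of 22, beside 5.56% of all genes, and without young replicate 3 it was 1 of 23, beside 3.85%, with 0 called by edgeR each time. By strand, the 8 tRNA genes on the minus strand held 64.5%, 67.1% and 70.5% of the tRNA counts in young and 61.5%, 66.1% and 65.8% in aged libraries, which overlapped (exact permutation p = 0.4). The deposited counts do not say whether strand was used, so a tRNA read and a read of the precursor from the opposite strand cannot be told apart.

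The nuclear genes for the respiratory complexes had a smaller median fitted change. Of 82 tested genes for complexes I to V, 78 had a fitted log2 fold change above 0, against 52.1% of all genes, with a median of 0.28 and a range of -4.00 to 0.66. edgeR and DESeq2 called 0, and 3 of 82 were higher at an unadjusted p below 0.05, a smaller share than the 5.56% of all genes. The lowest fold change was that of Cox6a2, a muscle form of a complex IV subunit, named here after its values were seen, with 9.02, 0 and 0.379 CPM in young and 0.331, 0.239 and 0 CPM in aged libraries (edgeR adjusted p = 0.522). Its high value was in young replicate 1, which also had the highest summed cardiac (275 CPM) and skeletal muscle markers (21.1 CPM). The part of muscle content in this was not tested. The genes at the unadjusted p were the complex I gene Ndufa6 with 0.64 ± 0.24 (SE), and the complex V genes 2010107E04Rik with 0.48 ± 0.19 (SE) and Atp5e with 0.44 ± 0.18 (SE). Ndufa6 was at 51.6, 35.5 and 29.8 CPM in young and 56.96, 72.3 and 53.3 CPM in aged libraries, without overlap. Summed levels were highest in aged replicate 2 for every complex, at 2643 CPM for complex I against 1339 to 2019 CPM in the other libraries, whereas mitochondrial mRNAs were highest in aged replicate 3. In aged replicate 2 brown adipocyte markers summed to 1867 CPM against 71.7 to 561 CPM in the others, and their part in this was not tested. Complex II has no mitochondrial gene, and its 4 nuclear genes had a median log2 fold change of 0.32.

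Within each library, the mean log2 CPM of the mitochondrial mRNAs minus that of the nuclear genes was compared for each complex. For the 13 mitochondrial and 78 nuclear genes together it was 7.03, 6.76 and 7.20 in young and 7.29, 7.29 and 8.27 in aged libraries. The aged values were all above the young ones, by 0.62 on average (exact permutation p = 0.1), but aged replicates 1 and 2 were within 0.1 of young replicate 3. The 13 genes include mt-Atp6, whose jumps fall in young replicate 3 and aged replicate 2. The average difference was 0.29 without aged replicate 3 and 0.80 without young replicate 1 and aged replicate 2. By complex the difference was 0.59 for complex I (exact permutation p = 0.1), 0.62 for complex III (exact p = 0.3), 0.78 for complex IV (exact p = 0.2) and 0.54 for complex V (exact p = 0.3). The mitochondrial mRNAs alone differed by 0.83 (exact p = 0.1) and the nuclear genes alone by 0.21 (exact p = 0.4).

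**Figure D5:**
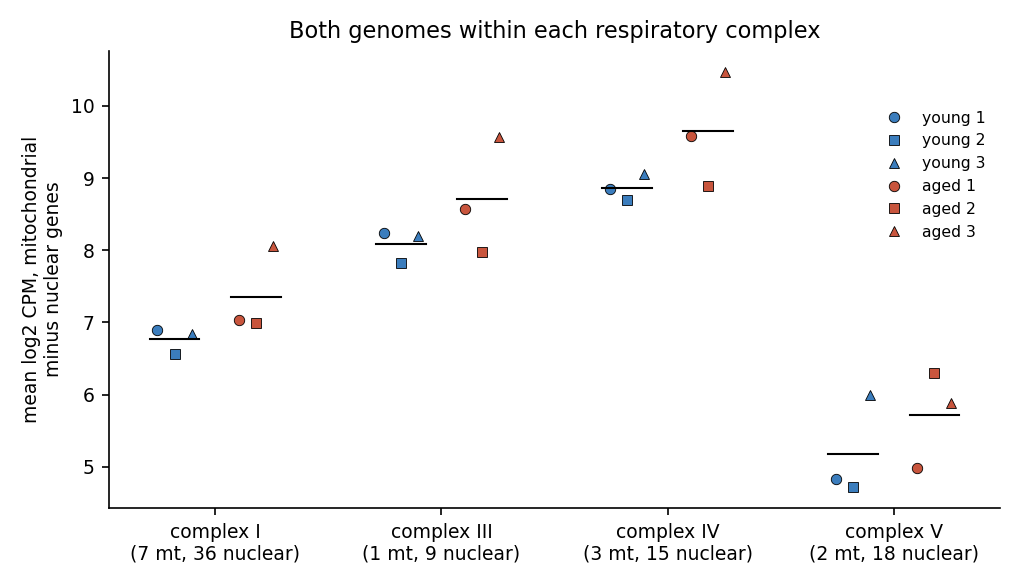
Mean log2 CPM of the mitochondrial mRNAs minus that of the nuclear genes of the same complex, for each library (symbols, blue young, red aged) and group mean (bars). Only complex I has all aged values above all young ones, aged replicate 3 is the highest for complexes I, III and IV, and complex V carries the jumps of mt-Atp6.

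Nuclear genes that make and handle mitochondrial RNA had medians near 0. Of the 10 tested genes of mitochondrial transcription, 6 were above and 4 below a log2 fold change of 0, with a median of 0.04, and 0 were called or passed an unadjusted p of 0.05 in edgeR. Polrmt, the mitochondrial RNA polymerase, was at 15.7, 18.2 and 19.2 CPM in young and 12.5, 15.4 and 13.2 CPM in aged libraries. All aged libraries were below all young ones, as for 8.78% of all genes and the reverse of the mRNAs it transcribes, with a log2 fold change of -0.37 ± 0.18 (SE, unadjusted p = 0.0752, edgeR adjusted p = 0.524). Tfam, which packs mitochondrial DNA and starts transcription, was at 20.2, 19.7 and 15.6 CPM in young and 17.8, 20.5 and 17.9 CPM in aged libraries, with overlap and a log2 fold change of 0.02 ± 0.17 (SE).

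The 14 genes that process the precursor RNA had a median log2 fold change of 0.06, and the 9 genes of RNA stability and decay one of -0.0047. Lrpprc, which stabilises mitochondrial mRNAs and supports their polyadenylation, was at 31.7, 37.4 and 29.6 CPM in young and 29.3, 42.04 and 27.1 CPM in aged libraries, which overlapped. Of the 14 genes of mitochondrial DNA replication and nucleotide supply, 11 were below 0, with a median of -0.04. The 10 tested regulators of mitochondrial biogenesis had a median of 0.08. Ppargc1a, the coactivator PGC-1alpha, was at 4.44, 7.90 and 2.71 CPM in young and 2.83, 5.62 and 2.62 CPM in aged libraries, with overlap. edgeR called 0 genes in each of these lists and 0 passed an unadjusted p of 0.05, and DESeq2 called 0 as well.

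The enzymes that charge and modify mitochondrial tRNAs were also near 0. The 22 genes for charging had a median log2 fold change of 0.01 and the 13 for modification one of -0.0032, with 0 called in either by edgeR or DESeq2. One gene in each passed an unadjusted p of 0.05, both lower in aged aorta, against 4.82% of all genes in this direction. Tars2, which charges the threonine tRNA, was at 30.6, 33.1 and 28.0 CPM in young and 22.5, 26.0 and 23.3 CPM in aged libraries, a log2 fold change of -0.35 ± 0.15 (SE, edgeR adjusted p = 0.472). Gtpbp3, which takes part in modifying the wobble base of several tRNAs, was at 15.9, 18.5 and 23.5 CPM in young and 14.0, 9.94 and 13.8 CPM in aged libraries, a log2 fold change of -0.62 ± 0.23 (SE, edgeR adjusted p = 0.437). In both genes all aged libraries were below all young ones.

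Markers of cell types in or around the aorta gave the following sums. Smooth muscle markers (4 genes) summed to 29719 to 37121 CPM in young and 25980 to 31508 CPM in aged libraries, with overlap. Macrophage markers (Cd68, Adgre1, Csf1r and Cd163) summed to 21.5 to 27.9 CPM in young and 33.9 to 73.3 CPM in aged libraries, and were the only one of the 9 marker lists whose sums did not overlap (exact permutation p = 0.1). Fibroblast markers summed to 808 to 1165 CPM in young and 776 to 3994 CPM in aged libraries, and endothelial markers to 271 to 314 and 257 to 1159 CPM. White adipocyte markers summed to 42.4 to 223 and 30.8 to 319 CPM, skeletal muscle markers to 6.55 to 21.1 and 8.15 to 15.9 CPM, and erythroid markers to 430 to 672 and 391 to 877 CPM. RNAs without a poly(A) tail summed to 73.2 to 385 CPM in young and 119 to 504 CPM in aged libraries. The part of cell content in the mitochondrial values was not tested.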

How the data were processed

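The authors deposited the counts of reads per gene, whole and not normalized, together with FPKM for the same genes. The submitters' notes name the build mm10, and the aligner, the counting tool and their handling of reads with several matches are not given in the sources used here. Totals per library lay between 31049632 and 45832185. Gene coordinates and transcript sequences are from GENCODE M21 (GRCm38), in which 55154 of 55335 gene identifiers were found. The main test was the quasi-likelihood F test of edgeR 4.0.16 in R 4.3.3, with age as the single term, after TMM scaling and after removal of low genes by filterByExpr (count of at least 10, total of at least 15). Benjamini-Hochberg adjustment covered the 16612 genes that remained, and an adjusted p below 0.05 was a call. SE values were derived from the test, as the absolute fitted log2 fold change divided by the square root of its F statistic. Shares, ratios and differences between genomes (log2 CPM with a prior count of 0.5) were compared by exact two-sided permutation tests over 3 mice against 3, in which 0.1 is the smallest p. Windows of 50 bases, the number of cycles, were compared between mitochondrial and nuclear transcripts of the annotation, not with the genome between them. Alternatives were RLE and total-count scaling, scaling over nuclear genes, other filters, the replicate block, DESeq2 1.42.0, limma 3.58.1 applied to logged FPKM (pseudocounts 1 and 0.1), and each library left out. Substitution of Gm10925 for mt-Atp6, omission of mt-Atp6, of the rRNA-like rows, and of young replicate 1 with aged replicate 2 were added after seeing the data. The members and gene lists were chosen with earlier results of these data known. All mRNAs and rRNAs are named, the tRNAs that passed the filter with their ranges and the 3 most counted in full, and from each nuclear list at most the 3 genes with the smallest p, with Tfam, Polrmt, Lrpprc and Ppargc1a in any case.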

Additional observations from a re-analysis of the deposited data

How the results depend on the processing

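The direction of the 13 mRNAs held in every fit with all libraries, with a median log2 fold change of 0.59 under total-count scaling, where the median of all genes was -0.22, to 0.84 in DESeq2. It was 0.69 to 0.99 with 1 library left out and 1.057 without young replicate 1 and aged replicate 2. edgeR called 0 of 13 under each setting and DESeq2 5, and the cause of the difference was not tested. Without aged replicate 2, the only edgeR fit with calls, 110 of 17147 genes were called. In that fit the lowest edgeR adjusted p of the 13 mRNAs was 0.187. With the replicate block 0 were called and 7 were higher at an unadjusted p below 0.05, against 5.56% of all genes. The deviations of same-numbered libraries from their group means correlated at 0.0792, 0.134 and 0.128. Differently numbered libraries were not compared, so whether the replicate numbers pair the mice was not tested. The fold changes that turned sign were those of several tRNA genes, of Tfam, Lrpprc and Ppargc1a, and of mt-Atp6. Total-count scaling gave -0.023 for mt-Ta, -0.15 for mt-Tq, -0.22 for mt-Ti and -0.22 for Tfam. Lrpprc turned to 0.0031 with RLE and 0.0033 with DESeq2, and mt-Ti to -0.013 with no filter. limma on FPKM gave -0.14 and -0.15 for mt-Tq, -0.031 and -0.039 for mt-Tt, and -0.16 and -0.19 for Tfam, with a pseudocount of 1 and 0.1. With 1 library, or young replicate 1 and aged replicate 2, left out, log2 fold changes ran from -0.97 to 0.37 for mt-Tw, -0.29 to 0.97 for mt-Ti, -0.017 to 0.75 for mt-Tn, -0.15 to 0.79 for mt-Ta, -0.35 to 0.49 for mt-Tq, -0.0086 to 1.40 for mt-Tv, -0.27 to 0.63 for mt-Tt, -0.47 to 1.87 for mt-Atp6, -0.081 to 0.10 for Tfam, -0.25 to 0.12 for Lrpprc and -0.96 to 0.058 for Ppargc1a. Shares within the 13 mRNAs moved in sign under the same omissions for mt-Nd5 (-0.463 to 0.200 points), mt-Nd4l (-0.202 to 0.0417), mt-Nd1 (-0.708 to 0.249), mt-Cytb (-0.105 to 0.581), mt-Co3 (-0.326 to 0.405), mt-Co1 (-0.738 to 2.21) and mt-Atp6 (-2.80 to 1.73). On FPKM the share of mt-Co3 differed by 0.0508 points.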
